A study of Saccharomyces cerevisiae with 13 samples.

Results

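Break-Seq marks the DNA ends present in cells: cells are lysed in agarose plugs, ends are filled in with biotin-labelled nucleotides, and the labelled fragments are captured and sequenced. The regions described here are the break regions of budding yeast (Saccharomyces cerevisiae) carrying the mec1-1 allele (strain WFA73, called mec1), from the Control experiment, after 1 h in 200 mM hydroxyurea (HU). Peaks of this HU library were called both against a mock library, labelled without biotinylated nucleotides, and from the HU library alone. The list over mock held 472 peaks and the list alone 265. Sorted by an overlap of at least 1 bp, they gave 507 distinct regions. These 737 peaks are part of the 2413 peaks of the 12 HU and recovery lists of the series, which count a region again in each list. Of the regions, 230 were called both ways, 242 only over mock and 35 only alone.

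In rich medium, all groups were first arrested by the mating pheromone alpha factor, at 3 µM, which stops cells in G1. The other lists used are mec1 in HU for 1 h (Exp A and Exp B, called alone), mec1 after 1 h of HU and 1 h of recovery (R, Exp A and Exp B, called over the HU library of the same experiment), and a strain with intact MEC1 (WFA72, called WT) in HU (Exp C and Control) and in recovery (Exp C). The Control experiment also had WT lists over mock and over G1, and a mec1 list over G1. The title of the sample called over mock here names the mock-labelled material, while its description names a peak list of HU against the library without biotin. It was read in the second way. The lists over mock, over G1 and over HU each compare a library with another, and the lists of a strain in the Control experiment share 1 HU library. The HU library of mec1 Control has no replicate called both ways, so no comparison has a replicate test, and intervals (exact Clopper-Pearson, 95%) cover counting error only. The lists carry no read counts, so depth is unknown, and peak positions do not allow a check of the genotype.

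Mec1 is the budding yeast counterpart of the ATR kinase. It senses single-stranded DNA at stalled replication forks, and through the kinase Rad53 it holds back late origins, keeps forks stable and raises the supply of deoxynucleotides. HU inhibits ribonucleotide reductase, starves forks of deoxynucleotides and so calls on this pathway. A mock library receives the same handling without the label, so it records DNA that reaches the sequencer without a marked end.

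All 230 regions called both ways had the same start and end in both lists, and 26 had the same score as well. No peak of either list overlapped more than 1 peak of the other. The lists thus differed in which regions they held and in scores, and not in where shared regions began and ended. The mec1 list over G1, called from the same HU library, held all 230 of these regions and all 242 only over mock. Their starts and ends were the same there, so the class only over mock was not particular to the comparison with mock. Of the over-mock peaks, 48.7% (interval 44.1 to 53.3%) were also called alone, and of the peaks called alone, 13.2% (9.37 to 17.9%) were missing over mock. The same sorting in WT of the Control experiment gave 33 regions called both ways, 27 only over mock and 10 only alone. There 55% (41.6 to 67.9%) of over-mock peaks were also called alone and 23.3% (11.8 to 38.6%) of the peaks called alone were missing over mock, and both intervals overlapped those of mec1.

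The leading regions called both ways held genes of varied function. The score, which is the authors' own value and is used here only to rank peaks within a list, was highest over mock at XII:157329-165072 (sacCer3, as all positions here), with 3200. This region touches SSL1 (a subunit of the transcription and repair factor TFIIH), SSK1 (a response regulator of the osmotic stress pathway), NSE1 (a subunit of the Smc5-Smc6 complex), CMS1 and THI73. The next 2, each with a score of 3100, were X:614365-622490, with the CTP synthase gene URA8, and VII:510039-517925, with MSB2 (an osmosensor at the cell surface) and SEC9 (a membrane fusion protein). XII:605030-611018, also with 3100, touched EST1 (a telomerase subunit) and TOP3 (topoisomerase III).

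The neutral trehalase gene NTH2 lay at II:238065-244894, with a score of 3012, and the RNA helicase gene PRP43 at VII:278772-285809, with 2920. VIII:289473-296276, with a score of 2877, covered the hexose transporter genes HXT1 and HXT5. The eighth, at XII:586305-593136 with 2858, touched BUR2, the cyclin of a transcription elongation kinase. Of these 8 regions, only the BUR2 region was overlapped by HU peaks of Exp A or Exp B, and it was in both. The TOP3, NTH2 and HXT1 regions were overlapped by WT Control HU peaks, both alone and over mock.

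The leading regions called only over mock were wider, between 7903 and 10505 bp. XVI:625048-633527, with a score of 3202, touched APL4 (a clathrin adaptor subunit), CSR2 and NTO1 (a subunit of a histone acetyltransferase). X:672811-682377, with a score of 3106, touched MET5 (sulfite reductase) and 5 other genes. The enolase gene ENO2 and the vacuolar copper transporter gene CTR2 lay in VIII:448214-458644. TFG2 (a subunit of the transcription factor TFIIF) and the cullin gene CUL3 lay in VII:497748-507028. The ribosomal protein genes RPL20B and RPL36A lay in XV:898481-907361 and XIII:649779-657681, and ATR1, a multidrug exporter gene, in XIII:32509-41267. These last 5 regions all had a score of 3100. The eighth, III:62403-72907 with a score of 2843, ran across HIS4 (histidine synthesis) and the mating genes STE50 and FUS1. Of these 8, only the RPL20B region was overlapped by a HU peak of Exp A, and none by one of Exp B.

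Of the 8 leading regions called only alone, 4 lay in the outer 20 kb of a chromosome, and all were shorter than 5 kb. IX:5967-9002, with a score of 604 in the list alone, touched YIL177C and PAU14, and X:5847-9030, with 470, touched YJL225C and PAU1. PAU genes form a family of small cell wall mannoproteins near telomeres. III:715-5467, with a score of 580, touched YCL075W and YCL074W. VIII:552716-556585, with 532, touched PHO12 (an acid phosphatase) and IMD2 (guanine nucleotide synthesis). The others were XII:926382-929107 with SFP1 (a regulator of ribosomal protein genes), XII:489604-490659 with RRT15, IV:1501995-1503959 with HSP31 (a chaperone) and FIT1 (a cell wall protein that holds iron carriers), and XV:979253-981025 with a tRNA gene. Their scores were 326, 312, 204 and 203. Those at III:715-5467, PHO12 and HSP31 were in both Exp A and Exp B, as was the SFP1 region.

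The lengths of the classes overlapped widely below 8 kb, and above it nearly all peaks were only over mock (plot of lengths by class). The median was 3242 bp for regions called both ways (range 907 to 8158 bp), 3620 bp for those only over mock (1019 to 13999 bp) and 1965 bp for those only alone (998 to 6709 bp). Only-over-mock peaks held 60 that were longer than any peak called both ways, with a median of 9770 bp. Over-mock peaks of at least 8 kb were also called alone in 2 of 65 cases, 3.08% (0.375 to 10.7%). The share was 39.1% (45 of 115) under 2 kb, 60.8% (90 of 148) from 2 to 4 kb, 68.8% (55 of 80) from 4 to 6 kb and 59.4% (38 of 64) from 6 to 8 kb. Score divided the list less: with the over-mock peaks in 4 groups of 118 by rising score, 38.1, 49.2, 56.8 and 50.8% were also called alone.

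**Figure D1:**
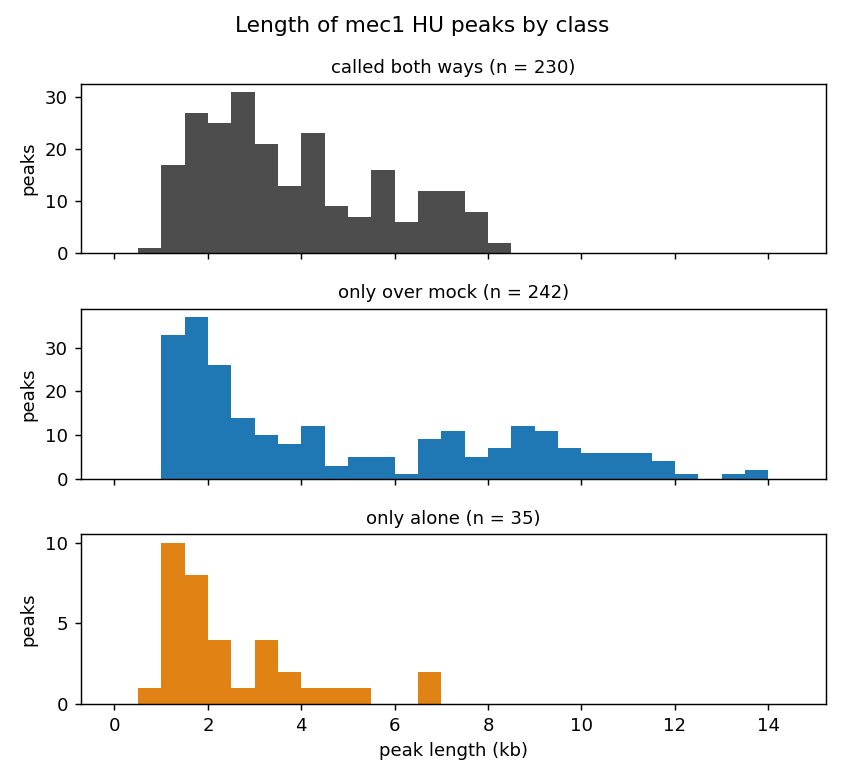
Number of regions (vertical axis) by peak length in kb (horizontal axis, bins of 0.5 kb) for the 230 regions called both ways, the 242 called only over mock and the 35 called only alone. Beyond 8158 bp only peaks called only over mock are present, 60 in all.

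The longest peaks ran across many genes each. The longest, IX:342429-356427 (13999 bp), touched 10 genes, among them BET1 (transport between endoplasmic reticulum and Golgi), CFD1 (iron-sulfur cluster assembly) and INP51 (a phosphoinositide phosphatase). II:622653-636451 held MCM7, a subunit of the replicative helicase, and VII:890606-904071 the protein mannosyltransferase gene PMT6. XV:167657-180068 lay over IRA2 (a negative regulator of Ras) and ATG19. XII:233754-245714 reached from PDC1 past the microtubule protein gene STU2. IV:556187-567877 held DBF4, the activator of the Cdc7 kinase, and CDC34 (a ubiquitin-conjugating enzyme). X:685196-696806 held HOM6 and HIR3, and XIII:170969-182528 held SUR7 and GAL80 (the repressor of galactose genes). The 60 longest peaks touched 5.78 genes each on average, and the other 182 only-over-mock peaks 2.41. No HU peak of Exp A or Exp B overlapped any of the 8 longest.

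HU lists of the other mec1 experiments were the independent measure of each class (plot of overlap with other lists). As a scale, the share of genome positions at which a window of each peak's own length would touch the list was computed. Regions called both ways were overlapped by Exp A in 28.3% of cases (65 of 230), against 8.29% on this scale, and by Exp B in 37% (85 of 230), against 9.05%. Those only over mock were overlapped in 12.4% (30 of 242) by Exp A, against 9.38%, and in 7.02% (17 of 242) by Exp B, against 10.3%. Those only alone gave 40% (14 of 35) against 6.79%, and 42.9% (15 of 35) against 7.4%. For the class only over mock the genome scale lay inside the counting interval in both experiments (8.52 to 17.2% and 4.15 to 11%), while the other classes lay above it in both.

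Exp A or Exp B together overlapped 43.5% (37 to 50.2%) of the regions called both ways, 15.7% (11.4 to 20.9%) of those only over mock and 51.4% (34 to 68.6%) of those only alone. The interval of the class only over mock did not meet the other intervals. Among peaks under 4 kb the shares were 53.3, 21.1 and 53.3%. Among peaks of 4 kb or more they were 29.5% (28 of 95), 9.65% (11 of 114) and 40% (2 of 5). Both experiments overlapped 50, 9 and 11 regions of the 3 classes. Exp A and Exp B were themselves called without a mock library, as the list alone was, so agreement from the way of calling and agreement in breaks cannot be told apart here.

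Recovery peaks of mec1 Exp A overlapped 41.3% of the regions called both ways, 14% of those only over mock and 48.6% of those only alone, and Exp B 34.8, 18.2 and 28.6%, so the class only over mock was lowest in both. WT HU peaks of Exp C, in contrast, overlapped 22.2% of the regions called both ways (17 to 28.1%) and 27.7% of those only over mock (22.1 to 33.8%), against 7.08 and 7.93% on the genome scale. WT Control HU peaks called alone overlapped 8.7 and 8.68% of these classes, against 2.23 and 2.58% on the genome scale. Those called over mock overlapped 10 and 12%, against 2.94 and 3.34%. Regions only alone were overlapped in 17.1% (6.56 to 33.6%) by WT HU Exp C and in 22.9% (10.4 to 40.1%) by WT Control alone, and the intervals of the classes overlapped in both lists. WT R peaks of Exp C overlapped 4.78% of the regions called both ways (2.41 to 8.4%, genome scale 5.69%), 10.3% of those only over mock (6.8 to 14.9%) and 20% of those only alone (8.44 to 36.9%, genome scale 4.64%). There the intervals of the first and last class did not meet.

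**Figure D2:**
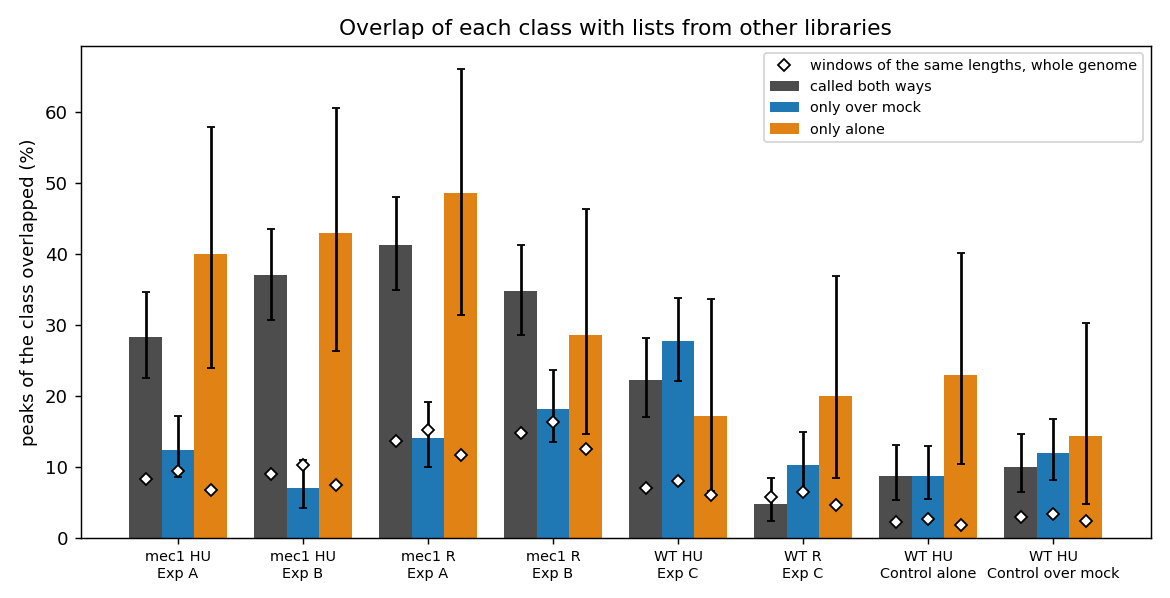
Share of the regions of each class (percent, vertical axis) that a peak of each list from another library overlaps by at least 1 bp; error bars are exact 95% binomial intervals and diamonds give the share of genome positions at which windows of the same lengths would touch that list. Regions called only over mock lie near their diamonds for the 4 mec1 lists and above them for the WT lists.

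The 60 peaks longer than any called both ways were overlapped by few mec1 HU peaks and by more WT HU peaks. HU peaks of Exp A overlapped 4 of them (6.67%, 1.85 to 16.2%) and Exp B 1 (1.67%, 0.0422 to 8.94%), against 14.5 and 16.1% on the genome scale, and the interval of Exp A holds its scale. WT HU peaks of Exp C overlapped 14 (23.3%, 13.4 to 36%), against 11.9%, and WT R peaks of Exp C 8 (13.3%, 5.94 to 24.6%), against 9.86%, which lies inside that interval. WT Control HU peaks overlapped 9 when called alone (15%, 7.1 to 26.6%), against 4.22%, 16 when called over mock (26.7%, 16.1 to 39.7%), against 5.22%, and 21 when called over G1 (35%, 23.1 to 48.4%), against 6.89%. These 3 WT Control lists share their HU library. WT Control and mec1 Control belong to the same experiment, and the part of the experiment in this overlap was not tested.

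Chromosome ends, here the outer 20 kb, carry telomeres and subtelomeric gene families and make up 5.31% of the genome. Regions called both ways had their midpoint there in 44 of 230 cases, 19.1% (14.3 to 24.8%), and regions only alone in 6 of 35, 17.1% (6.56 to 33.6%). Regions only over mock lay there in 6 of 242, 2.48% (0.915 to 5.32%). Of the 32 chromosome arms, 25 had a region called both ways at the end, 6 had one only over mock and 5 one only alone. The plot of distance to chromosome ends shows that the classes part within the first 20 kb. None of the 60 longest peaks lay in an end.

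**Figure D3:**
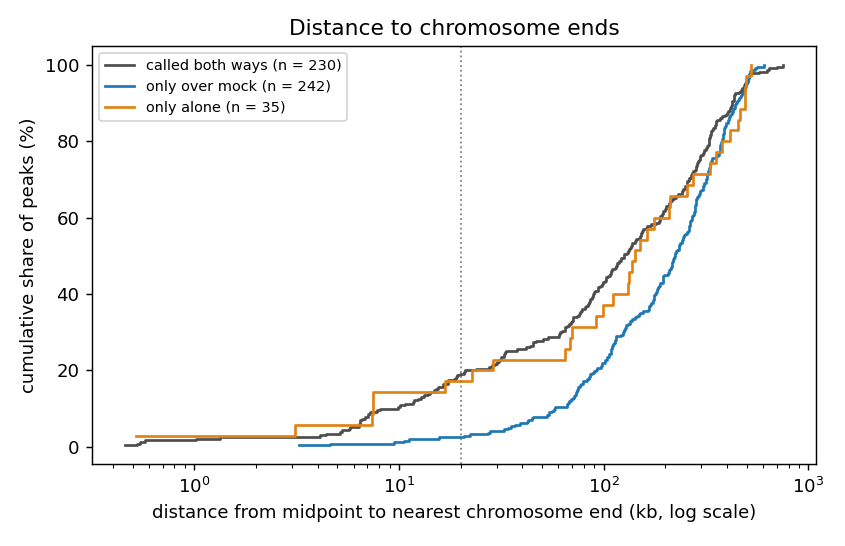
Cumulative share of regions (percent) by the distance from the midpoint to the nearest chromosome end (kb, log scale) for each class; the dotted line marks 20 kb. At that line the curves stand at 19.1% (both ways), 2.48% (only over mock) and 17.1% (only alone).

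Midpoints of regions called both ways lay inside a protein-coding gene in 55.7% of cases (128 of 230, 49 to 62.2%), and those of regions only over mock in 74.8% (181 of 242, 68.8 to 80.1%). Such genes take up 72.9% of the genome. Under 4 kb the shares were 50.4% (41.6 to 59.1%) and 73.4% (64.9 to 80.9%). From 4 kb they were 63.2% (52.6 to 72.8%) and 76.3% (67.4 to 83.8%), with intervals that overlap. Regions only alone gave 57.1% (20 of 35, 39.4 to 73.7%). Intergenic midpoints called both ways fell between tandem genes in 22.2% of regions (genome 13.7%), between divergent genes, whose starts face each other, in 13.9% (genome 8.84%) and between convergent genes in 8.26% (genome 4.32%). For regions only over mock the shares were 13.2, 7.85 and 4.13%, close to the genome in each case.

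Transfer RNA genes, which RNA polymerase III transcribes, lay under 40 of the 230 regions called both ways (17.4%, 12.7 to 22.9%), under 37 of 242 only over mock (15.3%, 11 to 20.5%) and under 6 of 35 only alone (17.1%, 6.56 to 33.6%). Windows of the same lengths touch one at 8.26, 10.2 and 5.44% of genome positions. The classes did not differ beyond their intervals. When peaks were reduced to 200 bp around the midpoint, 2 regions called both ways and none of the others touched a tRNA gene. The genome share of such narrow windows was not computed, so these counts show neither excess nor lack at peak centres. No region of any class touched a ribosomal RNA gene. Windows of the same lengths touch one at only 0.282, 0.296 and 0.236% of genome positions, so few or no such regions were due in these classes.

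**Figure D4:**
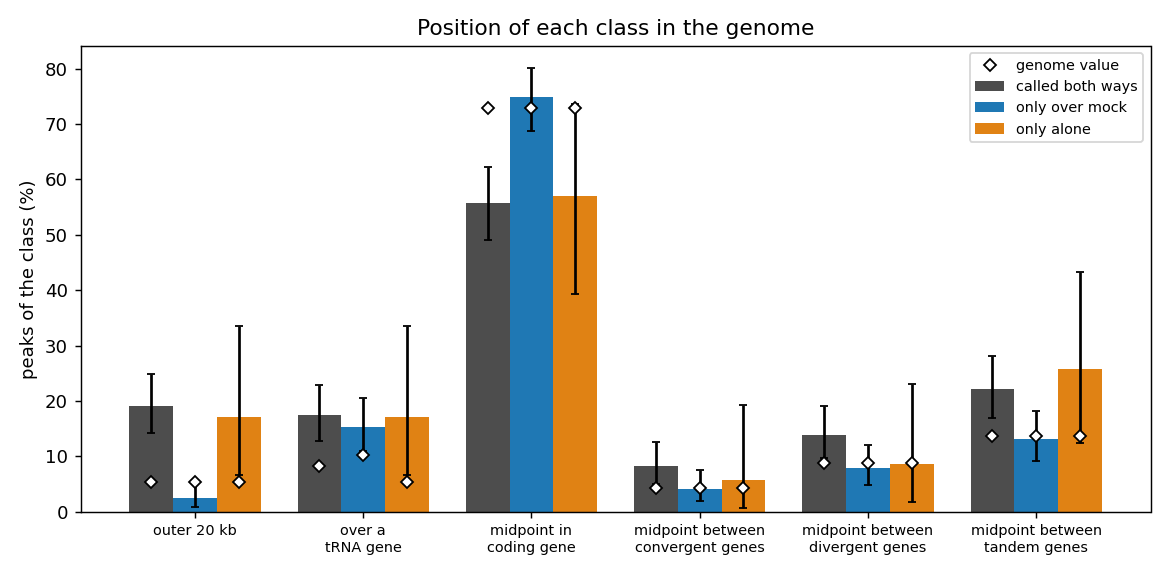
Share of the regions of each class (percent, vertical axis) by position in the genome, with exact 95% binomial intervals; diamonds give the share of the genome in each position or, for tRNA genes, the share of genome positions at which windows of the same lengths touch one. Regions only over mock lie at the diamonds for the gene and intergenic positions (74.8% against 72.9% for midpoints inside genes), and those called both ways do not (55.7%).

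Regions called both ways touched 635 of the 6431 nuclear genes (9.87%), regions only over mock 766 (11.9%) and regions only alone 64 (0.995%). Against these backgrounds, gene groups are described by counts alone (plot of genes touched). Neighbouring genes often share a peak, so members of a group are not independent.

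Of 13 maltose and isomaltase genes, 7 were touched by regions called both ways (53.8%), under 6 peaks, and none by the other classes: MAL33 and MAL31 (regulator and permease of maltose use) under 1 peak, MPH2 and MPH3 (permeases), and IMA3, IMA4 and IMA5 (isomaltases). Most of these genes lie near chromosome ends. Of 19 hexose transporter genes, 4 were touched both ways (21.1%) and 3 only over mock (15.8%). HXT1 and HXT5 shared 1 peak, HXT2 was covered over 96.9% of its length, and GAL2 over 13.8%. HXT7 and HXT6, near-identical neighbours whose reads may not be separable, lay under separate only-over-mock peaks, as did HXT10. The same limit holds for IMA3 with IMA4 and MPH2 with MPH3.

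Phosphate and sulfate genes were touched by regions called both ways in 7 of 25 cases (28%), by regions only over mock in 2 (8%) and only alone in 1 (4%). SUL1 (sulfate permease) and PHO89 (phosphate transporter) shared a peak of 7562 bp. PHO87, a low-affinity phosphate transporter gene, lay whole inside a peak of 7148 bp with a score of 2357. VTC2, VTC3 and VTC4, subunits of the polyphosphate polymerase of the vacuole, each lay under a separate peak, and PPX1 encodes an exopolyphosphatase. PHO84, the high-affinity phosphate transporter gene, and PHO80, the cyclin that restrains the phosphate pathway, were touched only over mock, and PHO12 only alone.

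Genes of iron and copper uptake were divided, with 6 of 40 touched both ways (15%), 8 only over mock (20%) and 1 only alone. One peak at XV:1055070-1060552 held FRE3 (a metalloreductase), FIT2 and FIT3, and its neighbour at XV:1061454-1064705, called only over mock, held FRE5. TIS11, which directs decay of mRNAs in low iron, and the siderophore transporter genes ARN2 and ENB1 were touched both ways. CTR1 and CTR2 (copper transporters) and FTH1 (vacuolar iron export) were touched only over mock.

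Regions only over mock touched 10 of 25 glycolysis and fermentation genes (40%), and regions called both ways 4 (16%). The 10 were TPI1, FBA1, TDH2, TDH3, PGK1, ENO2 and PYK2 of glycolysis and the pyruvate decarboxylase genes PDC1, PDC5 and PDC6. They lay under 10 separate peaks with a median length of 8534 bp. FBA1, TDH3, ENO2 and PYK2 were covered whole, while PDC1 was covered over 19.4% of its length and PDC5 over 21.8%. Only PDC6 held a peak midpoint. HXK1 (hexokinase), TDH1 and the alcohol dehydrogenase genes ADH1 and ADH4 were touched both ways, and none of these held a midpoint. Of the 10 only-over-mock peaks, HU peaks of Exp A and Exp B both overlapped that over TDH3, Exp A alone that over PYK2, and neither the other 8. Both experiments overlapped the both-ways peaks over HXK1 and TDH1, and neither those over ADH1 and ADH4.

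The same class touched 14 of 64 genes of the G1/S transition, replication and cohesion (21.9%), and regions called both ways touched 4 (6.25%). Genes of this group are longer, with a median of 1857 bp against 1131 bp for all genes. The 14 lay under 13 peaks with a median length of 7818 bp, and 4 of the 14 genes held a peak midpoint. ORC1 and ORC3 (origin recognition), MCM7 (helicase), PSF1 (GINS complex), SLD7 (origin firing), RFC3 (clamp loading), DBF4 and CLB5 (origin activation), SWI6 (G1/S transcription) and the genes of cohesin and its release, SMC1, MCD1 and RAD61, lay whole under only-over-mock peaks. CDC6 was covered over 70% of its length and CDC7 over 20.1%. PSF1 and RAD61 shared a peak. MCM3, SMC3, ECO1 (cohesin acetylation) and CSM3 (fork protection) were touched both ways. Of the 13 only-over-mock peaks, HU peaks of Exp A overlapped those over CDC6 and SLD7, and HU peaks of Exp B overlapped none. Both experiments overlapped the both-ways peaks over SMC3 and CSM3, and neither those over MCM3 and ECO1.

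Checkpoint and nucleotide supply genes were touched only over mock, in 3 of 26 cases (11.5%), close to the background of that class. They were TEL1 (the kinase related to Mec1), CDC8 (thymidylate kinase) and RAD53, of which 12.2% was covered. Of 11 histone genes, HTA2 and HTB2 lay under a single only-over-mock peak of 9257 bp. DNA repair genes were touched both ways in 9 of 63 cases (14.3%), among them TOP3, RAD57, MPH1, SLX4, RAD4, RAD18 and SMC6. Only over mock, 7 were touched (11.1%), among them RAD6, SGS1 and REV1. RAD7 was touched by a region of each of these classes.

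Genes for defence against oxidants were touched only over mock in 7 of 28 cases (25%) and both ways in 2 (7.14%). The 7 were CTT1 (catalase), YAP1 (the regulator of the response), GSH1 (glutathione synthesis), AHP1 and DOT5 (peroxiredoxins) and the neighbours HYR1 and GTT1, which shared a peak. No HU peak of Exp A or Exp B overlapped the peaks over these 7. Of the 2 touched both ways, both experiments overlapped the peak over GPX1 and neither that over SOD2. Ribosomal protein genes were touched only over mock in 14 of 138 cases (10.1%) and both ways in 4 (2.9%), beside 11.9 and 9.87% of all genes. The first share is near its background, and these genes are shorter, with a median of 771 bp against 1131 bp for all genes. The 14 included RPL3, RPL4B and RPL12A. Pheromone response and mating genes gave 3 of 34 both ways (FUS3, KSS1 and KAR4), 8.82%, and 5 only over mock (FUS1, STE50, GPA1, TEC1 and PRM6), 14.7%. These shares are also near the background. Only alone touched 1, MFA2, which encodes the a-factor pheromone.

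Permease, cell wall, stress, ergosterol and glycogen genes had shares from 7.69 to 15% both ways and from 10 to 16.7% only over mock. These are near the 9.87 and 11.9% of all genes. Amino acid, ammonium and base permease genes gave 3 of 30 both ways (AGP1, AGP3 and GAP1) and 5 only over mock (BAP3, HIP1, DAL4, TAT2 and PUT4). Cell wall genes gave 4 of 46 both ways (FIG2, DAN4, EGT2 and KRE6) and 6 only over mock, among them SAG1 (the alpha agglutinin) and CCW12. Heat shock and general stress genes gave 3 of 30 both ways (SSA1, HSP104 and DDR2), 5 only over mock, among them HSP60 and MSN4, and 1 only alone (HSP31). Ergosterol genes gave 2 of 26 both ways, ERG11 and SUT1, and 4 only over mock (ERG1, ERG4, ERG6 and ERG26). Glycogen and trehalose genes gave 3 of 20 both ways (NTH2, GLC3 and GSY1) and 2 only over mock (NTH1 and GSY2).

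Among the gene families with many subtelomeric members, YRF1 genes, which encode helicase-like proteins of the Y′ elements, were touched both ways in 6 of 8 cases (75%) and PAU genes in 8 of 24 (33.3%), and neither family by a region only over mock. None of the YRF1 genes was covered whole. Of the 8 PAU genes, PAU2, PAU17 and PAU23 lie outside the outer 20 kb. PAU1 and PAU14 were touched only alone. COS genes gave 2 of 12 in each of the first 2 classes, COS6 and COS8 both ways and COS1 and COS111 only over mock. Members of these families are similar in sequence, and how the authors placed reads that match several copies is not given in the sources used here.

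**Figure D5:**
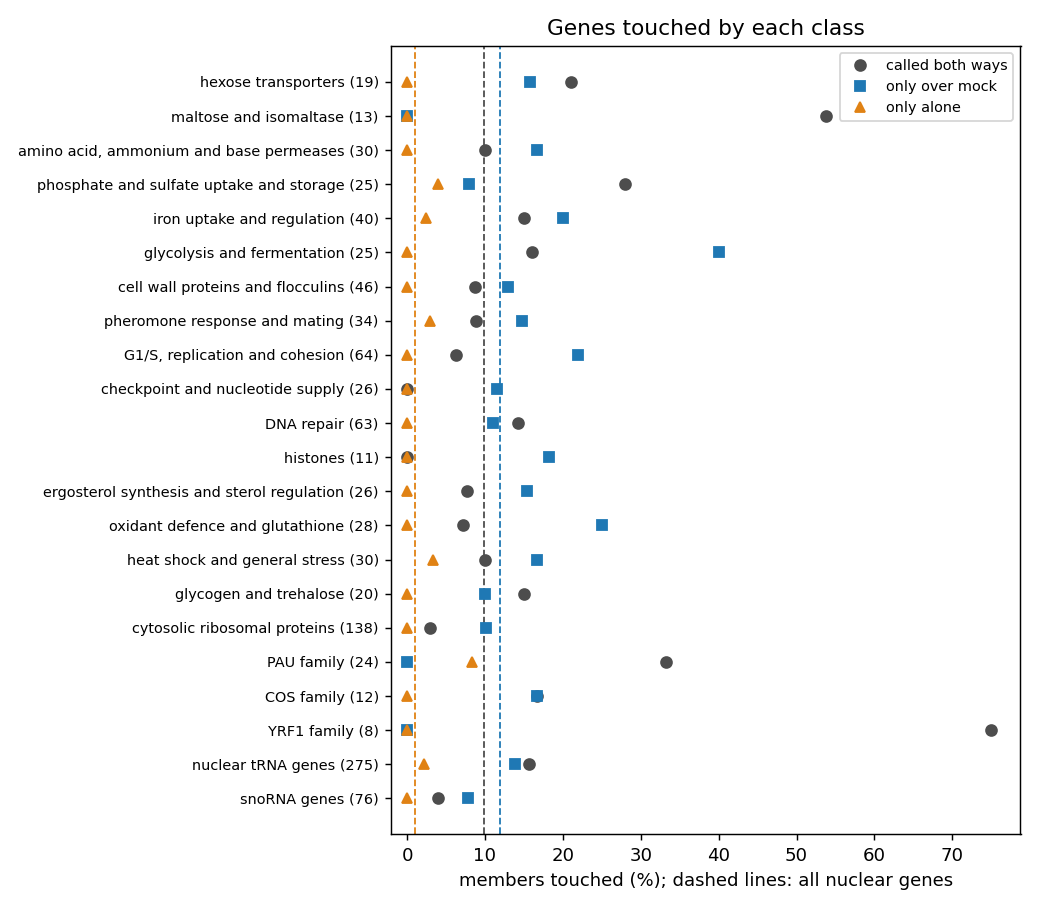
Share of the genes of each group (percent, horizontal axis; number of genes in brackets) touched by regions of each class, with dashed lines for all 6431 nuclear genes (9.87, 11.9 and 0.995%). Maltose and isomaltase, PAU and YRF1 genes stand to the right for regions called both ways, and glycolysis, oxidant defence and G1/S genes for regions only over mock.

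The remaining regions only alone are described by sets of loci that were chosen after their values were seen. Peaks called only alone lay over the long reading frames YGR109W-B, YGR161C-D, YIL082W-A, YOR142W-B and YPR158W-B, which have no symbol in the gene table. Regions called both ways also held long reading frames without a symbol, among them YML045W (XIII:187715-188903), YMR045C (XIII:357322-359187), YER160C (V:490931-493801) and YOL103W-B, so such loci were not confined to 1 class. These frames may be repeated in the genome, and how reads that match several copies were placed is not given. Peaks over them are therefore uncertain. The silent mating cassette genes HMRA1 and HMRA2 lay under the only-alone peak III:290303-296815.

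The mec1 list over G1, called from the same HU library, lacked 5 of the 35 regions only alone and none of the other classes. They were those over YGR109W-B, YIL082W-A, RRT15, YIL177C with PAU14, and YJL225C with PAU1. PAU genes are similar in sequence and the frames without a symbol may be repeated, so these 5 regions may not be independent. HU peaks of WT Control called alone overlapped 5 of these 5, and those of WT Control called over mock 3 (RRT15, PAU14 and PAU1), while HU peaks of mec1 Exp A overlapped 1 and of Exp B none. Of the other 30, WT Control alone overlapped 3, WT Control over mock 2, Exp A 13 and Exp B 15. Of these 30, 11 were in both experiments. Among the 11 were the peaks over SOL1 (XIV:691048-692245), MFA2 (XIV:350932-352906), SRY1 (XI:15918-17636) and RIM15 with MIL1 (VI:67673-69187).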

How the data were processed

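Per the labels' descriptions, the authors called peaks with MACS, for the Control experiment as one-sample or two-sample analyses. The build was sacCer3, per the submitters' processing notes, which name BWA without a version for the Control samples and Bowtie2, BWA 0.6.2 and MACS 1.4.1 for the others. For MACS settings and filters no entry was given in the sources used here. Deposited lists hold positions and a score per peak, the authors' own value, of unstated scale, which served only to rank and filter within a list. Starts were made 1-based. Genes came from the RefSeq R64 table (6431 nuclear genes). It has no chromosome lengths, so chromosomes extend to the furthest gene or peak (12.055 Mb). Lists were intersected with Python 3.11.15, pandas 2.3.3 and numpy 2.4.6, in code tested on simulated peaks. Named genes are those of the first 8 regions of each class by score, of the 8 longest over-mock peaks, and up to 8 members per gene group and class by score. Where more members of a group are named, all touched members are given. The members and lists were chosen with earlier results of these data known. Alternatives were overlap rules, a score of at least 100, chromosome ends left out or narrowed, 200 bp around midpoints, and each of Exp A and Exp B left out. The list of BamHI-cut G1 DNA was not used.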

Additional observations from a re-analysis of the deposited data

How the results depend on the processing

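Of 51 alternative values for the class counts and shares, 39 stayed within 1.5 times the reported count or within the reported interval, and 12 did not. Requiring 50% of the shorter peak or a midpoint inside the other peak left all 3 class counts as they were. With a score of at least 100 in both lists, 139 regions were called both ways, touching 374 genes, and the counts for the other classes were 264 and 26; this sorts weak peaks of 1 list into another class. The share overlapped by Exp A or Exp B ranged, without replicate A or without replicate B, from 28.3 to 37% (both ways), from 7.02 to 12.4% (only over mock) and from 40 to 42.9% (only alone), as fewer lists can overlap. In the outer 10 kb lay 10.4% of the regions called both ways, a smaller part of the genome by construction. With 200 bp around the midpoint, 0.87% of regions called both ways and 0% of the other classes touched a tRNA gene. For windows this narrow no genome share was computed. The 3 classes touched 154, 206 and 23 genes in them. So counts of genes depend on whole peaks, up to 13999 bp wide. No paired analysis was possible because no result comes from a test. Depth limits every statement about a missing peak, as the lists give no read counts.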
